A study of Mus musculus with 3 samples.

Results

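The genes described here are made in oocytes or carried by the oocyte into the embryo, and comprise the oocyte NLR proteins (Nlrp), the Khdc, Oog, Oosp, Tcl1, Dppa, Rfpl4 and Omt families, the zona pellucida genes and a set of named maternal-effect genes. They were chosen by gene name from the lists of 5-methylcytosine (m5C) sites in mRNA, and 52 of the 8353 genes with a called site were members, with 174 of the 40298 distinct sites. The names Obox and Sohlh and the gene Zar1l were searched for as well, and no gene so named had a called site. RNA bisulfite sequencing was done on C57BL/6J wild-type mice at 3 stages, with 1 library per stage. Germinal vesicle (GV) oocytes, which are arrested before meiotic resumption, came from ovaries of females aged 7 to 8 weeks, 48 h after 10 IU of the serum gonadotrophin of pregnant mares (PMSG). Metaphase II (MII) oocytes, which have matured and await fertilization, were taken 12 h after 5 IU of human chorionic gonadotrophin (hCG) that followed 10 IU of PMSG. One-cell embryos came from mated females of that age, 24 h after 5 IU of hCG that followed PMSG, for which their own label gives 5 IU and the oocyte labels, by reference, 10 IU. By the labels, the zona pellucida of oocytes and embryos had been removed with hyaluronidase. The design text of the series gives about 200 embryos for a library, and the methods of the study give no pool size for the mouse samples. A value was taken as the average of many cells and of several animals. With a single library per stage there was no replicate check, and a batch of libraries and a stage cannot be told apart.

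A growing oocyte builds a store of mRNA and then stops transcription, so meiotic maturation, fertilization and the first cell cycle run on mRNA that is translated, deadenylated and destroyed on a schedule. Many of the members are known for this handover. The subcortical maternal complex lies under the plasma membrane of the oocyte and is needed for the first cleavages, the zona proteins form the egg coat, and factors such as NPM2, UHRF1 and TRIM28 act on the chromatin of the zygote. The mark m5C is set in mRNA mostly by NSUN2, at sites followed by G-rich sequence, and by NSUN6, at a CUCCA motif in a loop. Bisulfite turns C into U and leaves m5C as C, so the share of reads that still show C is the m5C level of a site, and the number of reads over the site is its coverage.

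The sequences below are sites on which the comparisons turn, chosen from those of the highest levels and of the largest rises. Each is 25 bases of the mRNA strand in GRCm38 (mm10), written as DNA, and the capitals mark the methylated C and the 4 bases after it.
Zbed3, coding, chr13:95336474-95336498, plus strand: ccagcgggagCTGGAgctggagcgg
Btg4, coding, chr9:51117943-51117967, plus strand: tctggcacatCTTCTgatgaagaaa
Zp1, coding, chr19:10919400-10919424, minus strand: acagtattctCAGCTgattacaaag
Tle6, coding, chr10:81596015-81596039, minus strand: aaaagcacccCGGGGcctcagctgc
Gpr3, coding, chr4:133211178-133211202, minus strand: tggtgtcctgCGAGAacgcgctggt
Uhrf1, 5′ UTR, chr17:56303470-56303494, plus strand: cggctcccttCTGGGtcacccagcc
Kit, coding, chr5:75641353-75641377, plus strand: gccctaatgtCGGAActgaaggtcc
Tcl1, 3′ UTR, chr12:105216850-105216874, minus strand: cagggtcaccCAGGGaagccttggt
Sites that read CUCNA from the methylated C on, where N is any base, were taken as Type II, the class of NSUN6. All 8 are of Type I, the class of NSUN2, which here means every other site. The Btg4 site has no G among the 4 bases after it and is of Type I by this rule alone. The next set shows the 4 Nlrp sites of Type II that were called at all 3 stages, which share the 5 capital bases of the NSUN6 motif.
Nlrp14, coding, chr7:107192478-107192502, plus strand: gtgagcatctCTCCAccgctctcct
Nlrp4a, coding, chr7:26449571-26449595, plus strand: ctgaattgatCTCCAgagaatggcc
Nlrp4f, coding, chr13:65194991-65195015, minus strand: ctctcctcctCTCCActaccccaga
Nlrp4g, exon of a non-coding transcript, chr9:124349411-124349435, plus strand: ctttcctcctCTCCActaccccaga
The windows of Nlrp4f and Nlrp4g differ at 1 of 25 positions and at none once every C is read as T, so bisulfite reads over them cannot be assigned with certainty and their values are uncertain.

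The reads at called sites of all genes summed to 4475058, 5285011 and 2616279 in the GV, MII and 1-cell lists. The 8 oocyte markers (Zp3, Gdf9, Bmp15, Ooep, Padi6, Nlrp5, Zp2 and H1foo) were considered, and 5, 6 and 8 of them had a site in the order of the stages, with Padi6 and Zp2 in neither oocyte list. Of 12 granulosa and cumulus markers, 0, 2 and 1 had a called site in the order of the stages, with 145 reads at the MII and 48 reads at the 1-cell sites in all. Of 6 sperm markers 1, 1 and 0 had a site (Prm2), and of 9 markers of zygotic genome activation none had a site at any stage. The lists hold called sites alone, with at least 20 reads, a level of at least 10% and at least 5 unconverted reads, so a gene without a site is not shown to be unexpressed. The 1-cell values describe the deposited library alone, since this list differs from the one that accompanied the study.

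The members had 59 sites in 34 genes in GV oocytes (95% interval of the count for counting error 44.9 to 76.1), 84 sites in 42 genes in MII oocytes (67.0 to 104.0) and 155 sites in 51 genes in 1-cell embryos (132 to 181). The lists as a whole also grew, with 15910, 20694 and 24996 sites. The 8 genes of the subcortical complex had 15, 20 and 37 sites, the other Nlrp genes 4, 7 and 20, the zona and egg coat genes 2, 3 and 10, and the chromatin genes 13, 13 and 27. The transcription factors had 4, 10 and 8 sites. Trim28, a corepressor that protects imprinted DNA methylation, went from 4 and 3 sites to 13, and Khdc3, a KH-domain member of the subcortical complex, from 4 and 5 to 11. Nlrp4a had 1, 1 and 8 sites. Figla, the transcription factor that switches on the zona genes, was the member with oocyte sites and none in the embryo. The share of member genes with a single site was 67.6%, 57.1% and 33.3%, beside 41.2%, 35.2% and 29.7% of all genes.

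**Figure D1:**
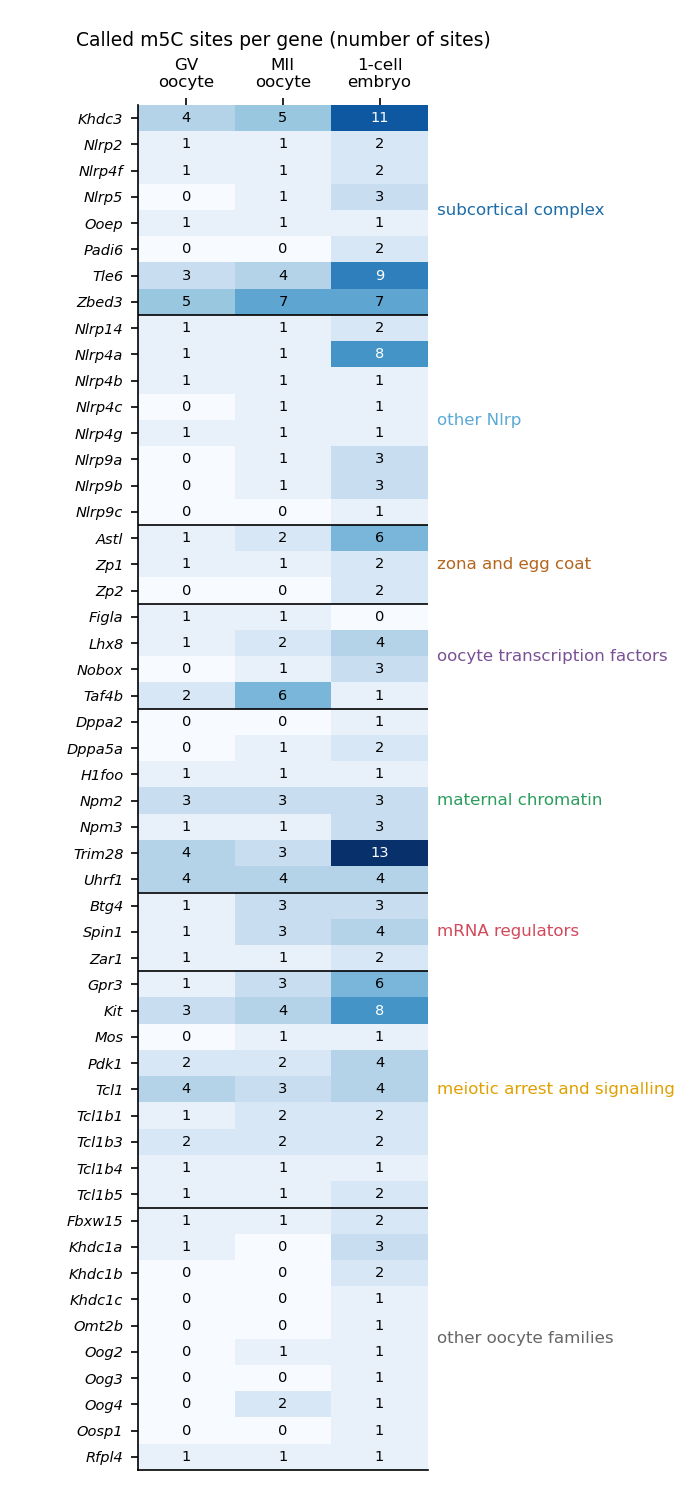
Number of called m5C sites in each of the 52 genes (rows, by group) in the lists of the 3 stages (columns), with darker cells for more sites. Trim28 (13), Khdc3 (11) and Tle6 (9) head the 1-cell column, and Figla is the row with 0 there.

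Sites of these genes were more deeply covered than the rest. The median coverage of a member site was 1197 reads in GV oocytes, 822.5 in MII oocytes and 173 in 1-cell embryos, beside 121, 107 and 58 over all sites. With 0.371%, 0.406% and 0.62% of the sites, the members held 7.71%, 8.87% and 7.18% of the reads. Zbed3, a gene of the subcortical complex, held the site of highest coverage of each list, with 60941, 74120 and 26806 reads, and without it the shares were 3.27%, 3.01% and 2.83%. Of the 20 sites with most reads, members held 8 in GV oocytes (Zbed3, Tle6, H1foo, Ooep and Zar1), 11 in MII oocytes and 6 in 1-cell embryos (Zbed3 and Ooep). In such pooled samples fewer cells and less RNA per cell cannot be told apart, and coverage was not normalized between the libraries.

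The median level of the members was 17.6% in GV oocytes (interval for a median over sites 15% to 20.5%), 20.4% in MII oocytes (16.7% to 23.4%) and 19.5% in 1-cell embryos (16.7% to 22.6%), where all sites had 19.5%, 19.8% and 23.8%. Sites at 50% or more numbered 3, 6 and 20, or 5.08%, 7.14% and 12.9% of the members' sites, beside 11.0%, 11.9% and 16.7% of all sites. The 3 in GV oocytes lay in Zbed3, Btg4 and Taf4b. A median over a list mixes different sites, and the embryo list was filled with low sites that the oocyte lists did not hold, so the change at the same site is given below.

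**Figure D2:**
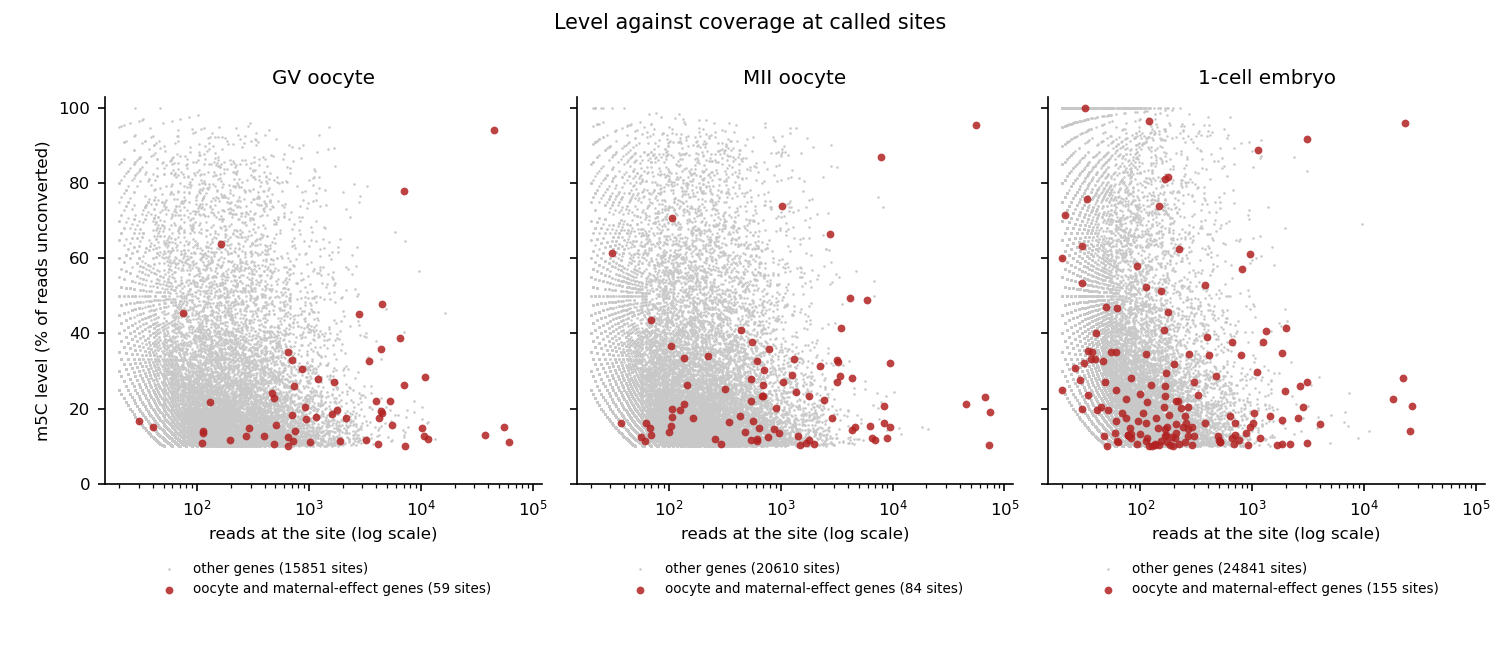
Level in percent (y axis) against coverage in reads on a log scale (x axis) for each called site in the 3 libraries, with the sites of the oocyte and maternal-effect genes in red and all others in grey. The red sites reach the far right of each panel, up to 60941, 74120 and 26806 reads, and 3, 6 and 20 of them lie at 50% or more.

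At sites called at both stages the level of the members was mostly higher at the later stage. Each shared site was compared by Fisher's exact test, two-sided, on its unconverted and converted reads, with Benjamini-Hochberg adjustment over all shared sites of the pair (the exact adjusted p below), which compares the libraries and not the stages. From GV to MII oocytes 38 of 55 shared sites were called higher (adjusted p under 0.05) and 0 lower, where 19.6% of all 12954 shared sites were called higher and 0.965% lower. From MII oocytes to 1-cell embryos 40 of 67 were called higher and 3 lower, where 51.3% and 2.45% of all 8015 sites were. From GV oocytes to 1-cell embryos, a pair that shares its libraries with the other 2, 42 of 50 were called higher and 0 lower, where 66.1% and 1.05% of all 6478 sites were. Coverage moved with these shares: at 1000 GV reads or more, 28 of 32 member sites (87.5%) and 73.2% of all such sites were called higher in MII oocytes, so the members' count was not read as particular to them.

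The median difference of the members was 6.27 percentage points from GV to MII oocytes (5.43 to 8.19), beside 4.87 over all shared sites. From MII oocytes to 1-cell embryos it was 6.31 points (4.17 to 12.1), beside 12.7, and from GV oocytes to 1-cell embryos 12.5 points (9.23 to 22.2), beside 19.2. These intervals are for a median over sites, several of which share a gene, and do not measure the spread between animals or libraries. At 100 reads or more in both libraries the members had 6.18, 6.31 and 11.3 points and all sites 5.19, 8.87 and 14.7 in the same order. From MII oocytes to embryos the members' median was thus below that of all sites in either set, and no test between the members and the rest was made. With reads divided by 5, as if most were copies, the calls of a higher level fell to 14, 18 and 25 and those of a lower level to 0.

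Of the 48 member sites called at all 3 stages, in 31 genes, 38 (79.2%) rose in value at both steps, 0 fell at both, 9 went up and then down and 1 down and then up, counted on the values with no test. Over all 6145 such sites 67.4% went up at both steps. The medians of the 48 sites were 19.1%, 27.5% and 37.7%.

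**Figure D3:**
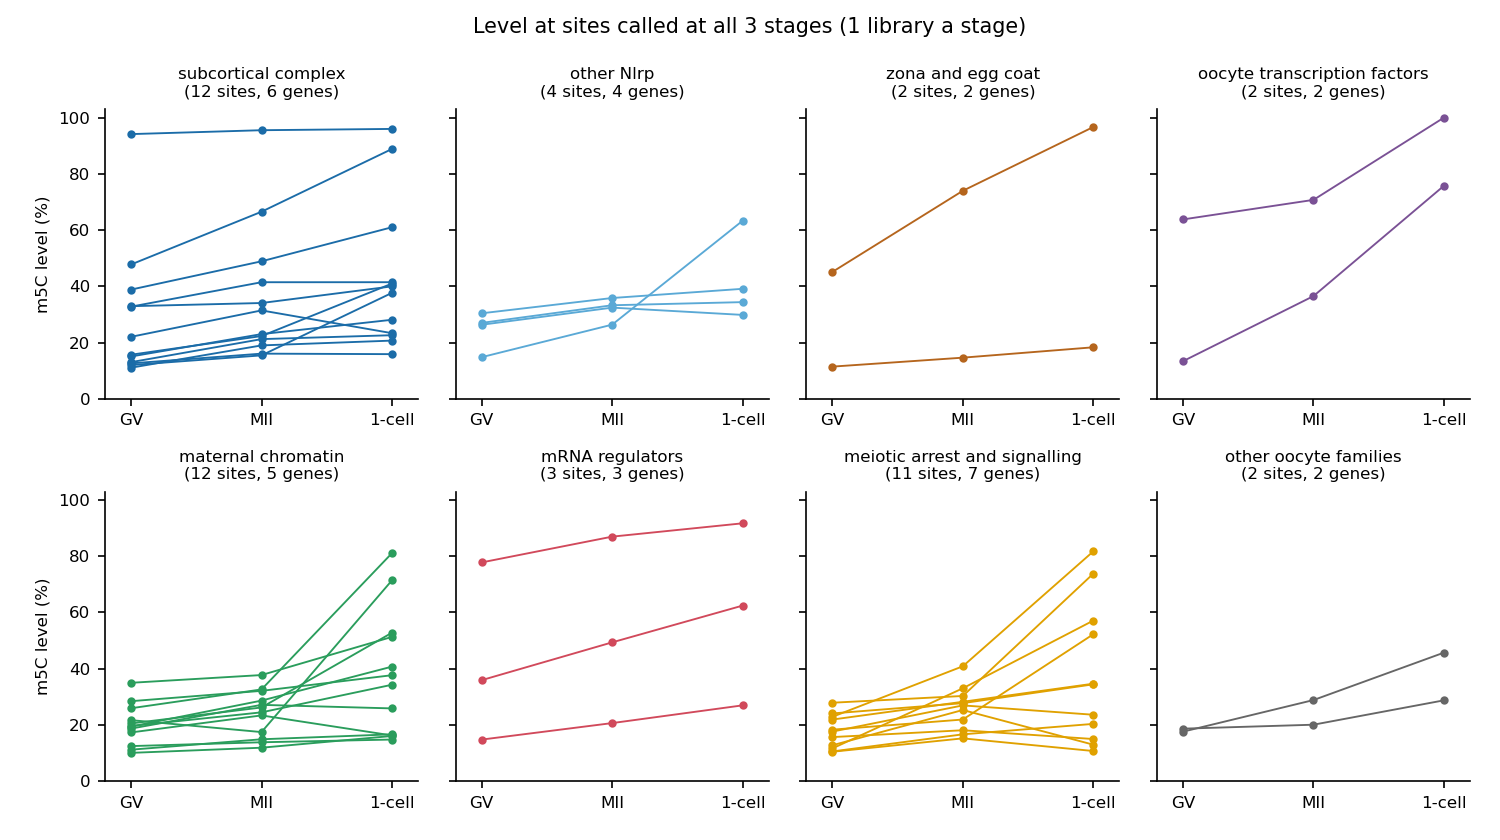
Level in percent (y axis) at the 48 sites called in GV oocytes, MII oocytes and 1-cell embryos (x axis), 1 line per site, in a panel per gene group. Lines in the zona, transcription factor and mRNA regulator panels climb at both steps. The signalling, chromatin, subcortical complex and other Nlrp panels hold lines that come down in the embryo.

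In the subcortical maternal complex 14 of 15 shared sites were called higher in MII than in GV oocytes, and 11 of 15 were called higher from MII oocytes to embryos. Over all shared sites the shares were 19.6% and 51.3%, and 73.2% and 64.4% at 1000 reads or more in the earlier library, and the median GV coverage of the group was 6527 reads. At the Zbed3 site shown above, in exon 2 at position 95336484 of chromosome 13, the level was 94.1% of 44791 reads in GV oocytes, 95.5% of 55823 in MII oocytes and 96.0% of 23303 in embryos. This site was near full methylation at each stage, and the rises of 1.38 and 0.459 points were called at these depths. Its neighbours 95336337, 95336559 and 95336614 started low, at 13.1%, 11.1% and 15.1%, reached 21.2%, 19.0% and 23.0% in MII oocytes and then 22.6%, 20.7% and 28.1% in embryos. At each of these, the step within the oocyte was the larger one. A further coding site at 95336528 entered the list in MII oocytes at 10.2% of 72121 reads and had 14% in embryos, and the 3′ UTR site at 95337177 rose from 38.9% to 48.9% and 61%.

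Tle6, a Groucho-family core subunit of the complex, held the next most methylated site of the group. In exon 5, at position 81596029 of chromosome 10, 47.8% of 4493 reads were unconverted in GV oocytes, 66.5% of 2762 in MII oocytes and 88.9% of 1113 in embryos. The steps were 18.8 points (16.5 to 21, exact adjusted p = 3.36e-52) and 22.3 points (19.8 to 24.9, exact adjusted p = 8.64e-48). The Tle6 site at 81594470 behaved otherwise, with 12.0%, 15.5% and 37.7%, so that most of its rise came after the MII stage. A Type II site of Tle6 at 81596057 had 10.1% and 14.3% in the oocytes and was not in the 1-cell list. Of the 9 embryo sites of Tle6, 6 were in neither oocyte list, at 10.4% to 17.5%.

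Khdc3 sites clustered in exon 3, on chromosome 9, where 13 of its 14 sites lay. The site at 73103298 had 15.7% of 5505 reads, 22.3% of 2431 and 41% of 161, and was called higher at each step. At 73103358, only 60 bases on, the levels were 22.1%, 31.5% and 23.4%, a rise into the MII oocyte (9.38 points, exact adjusted p = 2.61e-15) with a later difference of -8.10 points (-14.8 to -1.40) that was not called (exact adjusted p = 0.0551). The largest step of any member from GV to MII oocytes at 50 reads or more was at 73104061, from 12.7% of 395 reads to 43.5% of 69 (30.8 points, 18.7 to 43.0, exact adjusted p = 6.44e-07). Some of the exon 3 sites sit in copies of a repeated coding sequence, as these windows show.
Khdc3 at 73103298, chr9:73103288-73103312, plus strand: tgaaggtccgCGAGGctgcccctcg
Khdc3 at 73103370, chr9:73103360-73103384, plus strand: tgaaggtccgCGAGGctgcccctca
Khdc3 at 73103823, chr9:73103813-73103837, plus strand: tgaaggtccaCGAGGcggccaccca
Khdc3 at 73103529, chr9:73103519-73103543, plus strand: aggaggtcagCGAGGctgccaccga
The first and second windows differ at 1 of 25 positions and those at 73103370 and 73103823 at 4. The site at 73103370 was called in the oocytes (17.4% and 23.4%) and not in the embryo, while those at 73103823 and 73103529 were called in the embryo (22.1% and 14.6%) and not in the oocytes. All 5 Khdc3 sites that lie in an exon of another gene do so with Gm20509, which shares converted windows with 3 of its sites, so reads of this stretch may be split between copies.

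Ooep, a small KH-domain protein that binds the complex together, had a single site, at 78378414 of chromosome 9, with 12.6% of 10550 reads, 16.1% of 8354 and 15.9% of 4013. It rose into the MII oocyte (3.46 points, 2.45 to 4.47, exact adjusted p = 1.09e-09), and the later difference of -0.178 points (-1.56 to 1.20) was not called. Nlrp5, whose loss in the mother stops embryos early in cleavage, had no GV site, and its exon 6 site at 23410000 of chromosome 7 went from 10.6% of 2003 reads in MII oocytes to 18% of 627 in embryos (7.39 points, exact adjusted p = 1.38e-05). Padi6, a peptidylarginine deiminase needed for the cytoplasmic lattices, was listed in embryos alone, at 16.1% of 1022 reads and 12.2% of 1174. At the Nlrp2 site 5328550 neither step was called, with 33.0%, 34.1% and 40%, with intervals of -6.00 to 8.26 points and -10.5 to 22.3 points for the steps. Nlrp4f rose from 32.8% to 41.5% in the oocytes and had 41.5% in embryos.

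Among the other Nlrp genes, 3 had a Type II site at every stage. Nlrp14 had 26.4% of 7107 reads, 32.4% of 3280 and 29.9% of 1102, Nlrp4a 27.0%, 33.3% and 34.4%, and Nlrp4g 30.4%, 35.9% and 39.1%. The GV to MII differences of Nlrp14 and Nlrp4a were called (6.08 and 6.27 points), that of Nlrp4g was not, and none of the 3 was called from MII oocytes to embryos. Of the 4 shared Type I sites of this group at that last step, 3 were called higher, where 51.3% of all shared sites of both types were. The Nlrp9a site at 26558110 of chromosome 7 went from 16.4% of 348 reads in MII oocytes to 58.1% of 93 (41.7 points, 30.9 to 52.4, exact adjusted p = 2.02e-13). Nlrp4b had 14.8% of 290 reads, 26.4% of 144 and 63.3% of 30, and Nlrp9b went from 10.5% to 25.9%. The other, in Nlrp4c, had 16.1% of 62 reads and 32.3% of 31, which was not called (exact adjusted p = 0.166). No test between the site types was made. Nlrp4a gained 7 embryo sites in coding exons, at 10.1% to 27.1%.

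The egg coat genes showed a steep case. ZP1 links the filaments of the zona, and its exon 2 site at 10919414 of chromosome 19 was unconverted in 45.1% of 2783 reads in GV oocytes, 74.0% of 1034 in MII oocytes and 96.7% of 120 in embryos. Both steps were called, 28.9 points (25.6 to 32.1, exact adjusted p = 2.6e-55) and 22.7 points (18.5 to 26.9, exact adjusted p = 2.63e-09), so nearly all embryo reads over the site were unconverted. Zp2, the zona protein cut after fertilization, had no oocyte site and 2 embryo sites, at 35.3% of 34 reads and 12.7% of 268. Astl, whose product ovastacin makes that cut, had 1, 2 and 6 sites. Its 3′ UTR site at 127357283 of chromosome 2 had 11.5%, 14.7% and 18.3%, with neither step called, and its exon 9 site at 127356517 rose from 12.8% of 1416 reads to 29.4% of 170 (exact adjusted p = 6.9e-07).

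The transcription factors of the primordial and growing oocyte had a median coverage of 137.5 reads in GV oocytes, beside 1197 for the members and 121 for all sites. The Lhx8 site at 154328451 of chromosome 3, in the 5′ UTR of this LIM homeobox gene, had 13.4% of 112 reads, 36.5% of 104 and 75.8% of 33. Its steps were 23.1 points (11.9 to 34.3, exact adjusted p = 0.00144) and 39.2 points (21.9 to 56.5, exact adjusted p = 0.000373). Taf4b, an oocyte form of a TFIID subunit, held 6 sites within its first exon in MII oocytes and 1 in embryos, and the site common to the stages had 63.8% of 163 reads, 70.8% of 106 and 100% of 32. Nobox, a homeobox gene of early follicles, rose from 11.5% of 619 reads to 26.4% of 125 between MII oocytes and embryos (exact adjusted p = 0.000196). Figla had 11.6% of 198 reads and 19.8% of 106 in the oocytes, a difference of 8.20 points (-0.608 to 17.0) that was not called (exact adjusted p = 0.186).

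The chromatin genes held the sharpest contrast of neighbouring bases. Uhrf1 encodes the protein that brings DNA methyltransferase to replicated DNA. Its 5′ UTR site at 56303480 of chromosome 17 had 25.9% of 740 reads and 32.6% of 619 in the oocytes and 81.1% of 164 in embryos. The last step of 48.5 points (41.4 to 55.5, exact adjusted p = 3.16e-27) was the largest of any member at 50 reads or more from MII oocytes to embryos. In its 3′ UTR, 2 adjacent C were called at each stage, and their windows overlap by all but 1 base.
Uhrf1 at 56322905, chr17:56322895-56322919, plus strand: gtgcttcattCCAGGggtggcccct
Uhrf1 at 56322906, chr17:56322896-56322920, plus strand: tgcttcattcCAGGGgtggcccctg
The first had 17.3%, 23.4% and 16.3%, and the second 20.5%, 26.2% and 52.8%. Both rose in the oocyte, and from MII oocytes to embryos the first was called lower (-7.13 points, -12.0 to -2.25, exact adjusted p = 0.0132) and the second higher (26.6 points, 20.6 to 32.6, exact adjusted p = 3.96e-16), on 375 embryo reads each.

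Trim28 stayed low at most sites. Its exon 1 coding site at 13024810 of chromosome 7 had 35.0%, 37.7% and 51.3%, with the last step called (exact adjusted p = 0.00697), while the sites at 13024662 and 13025029 had no step called, with 12.5%, 13.8% and 14.8% and with 11.2%, 14.9% and 16.7%. Of its 13 embryo sites, 9 were in neither oocyte list, 8 of them at 11.1% to 19.6% and 1 at 46.9% of 49 reads. H1foo, the linker histone of the oocyte, had 1 site, with 28.5% of 10933 reads, 32.1% of 9450 and 37.7% of 658, called higher at each step. Npm2, the nucleoplasmin that opens sperm chromatin, held 3 sites at each stage, and its 5′ UTR site at 70652667 rose at each step while its 3′ UTR site at 70647466 rose in the oocyte and did not differ detectably afterwards (-1.26 points, -3.52 to 0.999). Dppa5a, which encodes a KH-domain protein, went from 11.6% of 541 reads to 34.5% of 113 (exact adjusted p = 1.54e-07), but its window has copies in Dppa5b and Dppa5c.

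Of the genes that act on maternal mRNA, all 3 shared sites were called higher in MII than in GV oocytes and 6 of 7 in embryos than in MII oocytes. Over all sites at 1000 reads or more in the earlier library 73.2% and 64.4% were, and the median coverage of this group was 7095 reads in GV and 7940 in MII oocytes. Btg4 ties the CCR4-NOT deadenylase to mRNAs that are to be cleared. Besides the strongly methylated site in its exon 4, at 77.8% or more at each stage and the second highest level of the members in both oocytes, it had coding sites at 51117921 and 51119194 of chromosome 9 that entered in MII oocytes at 12.0% and 12.1% and rose to 17.6% and 20.4% (exact adjusted p = 2.28e-11 and 1.62e-22). Zar1, an RNA-binding protein that stabilizes maternal transcripts, had 14.8% of 10251 reads, 20.7% of 8371 and 27.0% of 3055 at 72580729 of chromosome 5. Spin1, a reader of histone methylation that is abundant in oocytes, held its sites in the 3′ UTR on chromosome 13. At 51150424 the levels were 35.9% of 4391 reads, 49.4% of 4152 and 62.4% of 221, and at 51150539 they were 15% of 9419 in MII oocytes and 16.1% of 706 in embryos, which did not differ detectably (1.14 points, -1.67 to 3.94).

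Of the 15 sites in genes of meiotic arrest and signalling shared by MII oocytes and embryos, 5 were called higher in embryos and 2 lower, where 51.3% and 2.45% of all sites were. Gpr3, the receptor that keeps cyclic AMP high and meiosis arrested, had 22.9% of 485 reads, 40.9% of 438 and 81.7% of 175 at 133211192 of chromosome 4. The rise from GV oocytes to embryos was 58.8 points (52.0 to 65.7, exact adjusted p = 4.88e-41), the largest of any member at 50 reads or more. Kit, the receptor for the growth factor of the granulosa cells, did not differ detectably within the oocyte at 75641363 of chromosome 5 (27.9% and 30.3%, exact adjusted p = 0.514) and had 73.8% of 145 reads in embryos (43.5 points, 35.6 to 51.4, exact adjusted p = 2.06e-20). Its 3′ UTR site at 75654554 followed, with 18.3%, 21.9% and 52.3%. Mos, the kinase that holds the MII arrest, had 1 site in MII oocytes at 10.9% of 1699 reads and another in embryos, 18 bases away, at 12.2% of 82. Pdk1, a kinase of pyruvate dehydrogenase, had 45.3% of 75 reads and 61.3% of 31 at 71883501 in the oocytes (15.96 points, -4.56 to 36.5, not called), and its 4 embryo sites were other ones.

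Tcl1, a coactivator of the AKT kinase, held sites of both directions in 3′ UTR sequence on chromosome 12, which its annotated transcripts splice differently. At 105216864 the level went from 11.7% of 3235 reads to 33.0% of 3163 and 57.1% of 816, with steps of 21.4 points (exact adjusted p = 2.43e-93) and 24.1 points (exact adjusted p = 4.38e-33). At 105218232 it went from 10.5% of 4135 reads to 15.2% of 4570 and back to 10.7% of 3083, and the difference of -4.49 points was called (-6.00 to -2.98, exact adjusted p = 9.91e-08). The other fall called in this group was at the Tcl1b5 site 105180023, with 12.8%, 25.3% and 13.0% (-12.3 points, -21.2 to -3.42, exact adjusted p = 0.0434). None of the 3 falls of the members was called with reads divided by 5. Tcl1b3, Tcl1b4 and Tcl1b5 were methylated at the same place of their second exon, and the windows are close copies.
Tcl1b3, chr12:105193454-105193478, plus strand: cacaatccccCAGGAgcctactccc
Tcl1b4, chr12:105204680-105204704, plus strand: cacactcttcCAGGAgcctagtccc
Tcl1b5, chr12:105178958-105178982, plus strand: cacactccccCAGGAgcctactccc
Tcl1b3 and Tcl1b5 differ at 1 of 25 positions, Tcl1b3 and Tcl1b4 at 4, and Tcl1b4 and Tcl1b5 at 3. Once every C is read as T, these pairs differ at 1, 2 and 1 positions, so few positions in the windows tell their bisulfite reads apart. Tcl1b3 had 24.1%, 27.8% and 34.4%, Tcl1b4 15.7%, 18.1% and 15%, and Tcl1b5 17.6% in the embryo alone, at 74 reads.

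The remaining oocyte families entered the lists mainly in the embryo, with 3, 5 and 14 sites. Fbxw15, an F-box protein, had a site at all 3 stages, with 17.6% of 2152 reads, 28.9% of 1265 and 45.7% of 175 at 109557116 of chromosome 9. Rfpl4, an oocyte RING-finger protein, had 18.7%, 20.1% and 28.8% at its 5′ UTR site, with the last step called (exact adjusted p = 0.00107). Khdc1b, Khdc1c, Omt2b, Oog3 and Oosp1 had embryo sites alone, at 10.2% to 15.2%, and the Omt2b site (10.7% of 2178 reads) has a converted copy in Omt2a. In all, 15 member sites in 11 genes share a converted window of 61 bases with another gene.

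**Figure D4:**
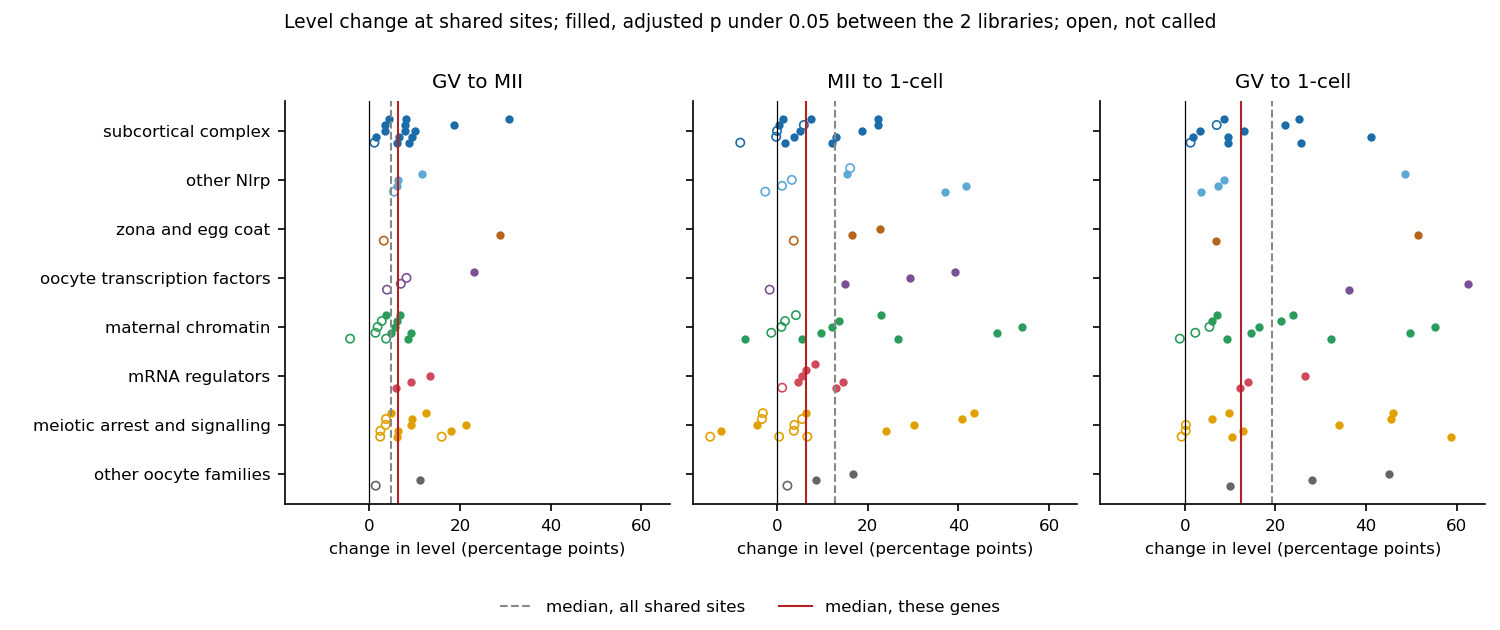
Change in level in percentage points (x axis) at each shared site of the 3 pairs of libraries, by gene group (y axis). Filled points passed an adjusted p of 0.05 by Fisher's exact test, and the lines mark the medians of these genes (6.27, 6.31 and 12.5) and of all shared sites (4.87, 12.7 and 19.2).

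Sites of these genes carried over into the embryo list more often than others. Of the GV sites 84.7% (73.0% to 92.8%) were called again in embryos and of the MII sites 79.8% (69.6% to 87.7%), beside 40.7% and 38.7% of all sites. This share moved with coverage. At 1000 reads or more, 30 of 32 GV sites (93.8%) and 36 of 39 MII sites (92.3%) of the members were called again, beside 94.3% and 90.9% of all sites of that depth, so the members and all sites of that depth had similar shares.

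The embryo gained 86 member sites that neither oocyte list held, 55.5% of its member sites, beside 66.6% for all genes. Their median level was 14.1% at a median of 136.5 reads, and 61 of them (70.9%) were under 20%, beside 51.4% of the 16648 such sites of all genes. The 69 embryo sites that an oocyte list also held had a median of 32.0% at 265 reads. Of the 86, 74 lay in genes with an oocyte site. Depth over 9 of them can be read from an oocyte-called site within 50 bases, in Spin1, Zbed3, Lhx8, Mos, Trim28 and Khdc3, and the neighbour had at least 104 oocyte reads in each. The Spin1 site at 51150439, for example, had 12.6% of 302 embryo reads and lay 15 bases from a site with 4391 and 4152 oocyte reads. Why these 9 were not called in the oocytes was not tested.

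Coverage fell unevenly between the shared sites. It was expressed as the ratio of reads at shared sites over the median ratio of all shared sites of the pair, which was 0.280 from GV oocytes to embryos. By gene, 10 of 32 members were more than 2-fold below that median and 2 above, where 14.1% and 11.5% of all genes were. By site the counts were 14 and 4 of 50, where 16.7% and 10.8% of all sites were. These counts moved with coverage. At 1000 GV reads or more they were 10 and 3 of 30 member sites, beside 211 and 24 of all 684 sites of that depth. The members' counts were therefore not read as particular to them. Khdc3 was 9.25-fold lower than the median change, Zp1 6.49-fold, Spin1 5.56-fold, Nlrp2 4.91-fold, H1foo 4.65-fold, Fbxw15 3.44-fold, Astl 2.94-fold, Nlrp4b 2.71-fold, Trim28 2.59-fold and Kit 2.03-fold. Nlrp4f and Tcl1b3 were 2.09-fold and 2.01-fold higher, and Zbed3, Btg4, Npm2 and Ooep were 1.57-fold, 1.54-fold, 1.60-fold and 1.36-fold higher. The ratios of Zp1, Spin1, Nlrp2, H1foo, Fbxw15, Astl, Nlrp4b, Nlrp4f, Btg4 and Ooep each rested on 1 shared site. Those of Khdc3, Kit and Tcl1b3 rested on 2. The Nlrp2 and Nlrp4b sites had 40 and 30 embryo reads.

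Part of this was already seen in the oocyte. From GV to MII oocytes 4 of 33 genes were more than 2-fold lower (Nlrp2 2.72-fold, Zp1 2.33-fold, Pdk1 2.10-fold and Khdc3 2.04-fold) and 0 higher, where 1.34% and 0.798% of all genes were, and by site 6 and 0 of 55, where 1.62% and 0.695% were. Of these 4 genes, Khdc3 alone had more than 1 shared site. At 1000 GV reads or more the counts were 3 and 0 of 32 member sites, beside 24 and 2 of all 716. Spin1 and H1foo stayed near the median at that step and were lower in the embryo. From MII oocytes to embryos 7 of 38 genes were lower and 0 higher, where 11.7% and 11.9% were, and by site 11 and 2 of 67, where 14.3% and 10.3% were. At 1000 MII reads or more the counts were 9 and 2 of 36 member sites, beside 162 and 22 of all 731. Within the complex, the shared sites of Khdc3 and Nlrp2 were lower than the median change from GV oocytes to embryos. Those of Ooep and Nlrp4f were higher, as were the coding sites of Zbed3, whose 3′ UTR site at 95337177 was 1.91-fold lower. Reads of the Khdc3 stretch may be split between copies, and those at the Nlrp4f site cannot be assigned with certainty. These ratios come from called sites only, and a gene whose sites left the list gives none.

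**Figure D5:**
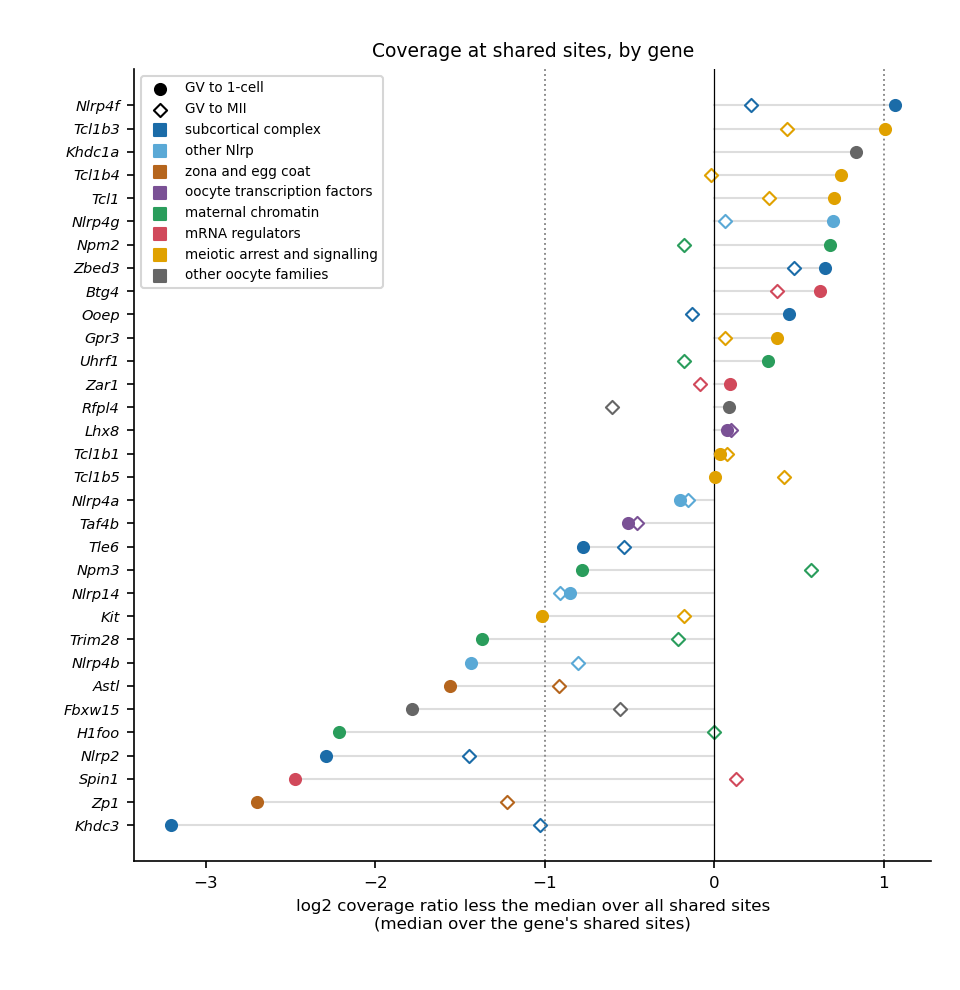
Coverage at shared sites in 1-cell embryos (filled points) and MII oocytes (open diamonds) relative to GV oocytes, as the log2 ratio less the median over all shared sites of the pair (x axis), for the 32 genes with sites shared by GV oocytes and embryos (y axis), coloured by group. Dotted lines mark 2-fold, which 10 genes pass on the low side in embryos, from Kit to Khdc3, and 2 on the high side. A point is the median over the shared sites of a gene, which for many genes is 1 site.

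Coding sequence held 62.7%, 67.9% and 72.3% of their sites, beside 68.1%, 68.6% and 73.3% of all. Type II sites numbered 8 over all stages, in Nlrp14, Nlrp4a, Nlrp4f, Nlrp4g, Oog2, Oog3, Tle6 and Trim28, with 6 per stage, or 10.2%, 7.14% and 3.87% of the sites beside 5.89%, 5.01% and 3.44% of all. All 8 read CTCCA from the methylated base on, and 6 of them are in multigene families. With CUCCA alone the shares of all sites were 5.49%, 4.67% and 3.01%. The 4 bases after a Type I site held 1.87 G on average (SD 0.878, n = 166 sites), beside 2.07 over all Type I sites, and CAGG began at 28 of the 166 (16.9%), beside 17.2%. In predicted folds around Type I sites, the 5 bases after the site were paired in 68.8%, 70.3% and 65.4%, beside 71.1%, 70.4% and 66.2%.

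Unconverted reads in the rest of the mRNA were few. The rate that the deposited p-values imply for each gene had a median of 0.179%, 0.235% and 0.251% over 17, 27 and 46 member genes, beside 0.264%, 0.367% and 0.354% over all genes. The highest were Khdc3 at 1.24% in embryos and Zbed3 at 1.16% in MII oocytes and 1.33% in embryos. In the genes for which a rate could be recovered, the lowest site level was at least 20.5-fold, 8.83-fold and 8.37-fold the rate of the gene in the 3 libraries. Of the 34 genes with GV sites 17 gave no rate, among them Zbed3 and Tle6, because their p-values were too small.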

How the data were processed

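The authors converted RNA with bisulfite, made directional libraries (1 per stage) and processed the reads with the tools that the submitters' processing notes name (bcl2fastq 2.17, cutadapt 1.13, Trimmomatic 0.36, HISAT2 2.10, Bowtie2 2.2.9 and SAMtools) on mm10. The labels name polyadenylated RNA and the methods of the study rRNA-depleted RNA, the dose of hCG for MII oocytes differs between them, and the conversion text differs between oocytes and embryos. The deposited lists give per called site the coverage as a count of reads, the m5C level as a fraction of unconverted reads, and a binomial p-value, all computed by the authors. They filtered on coverage, level, unconverted reads, conversion-resistant genes and p. Reads had no molecular identifiers, so intervals of counts, shares and differences at a site cover counting error only.

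Unconverted reads were taken as level times coverage. Sites were placed in GENCODE release M21 transcripts and bases read from GRCm38. Exact binomial and Poisson intervals (95%) were used, and normal ones for differences at a site. Intervals of medians came from the ranks of the site values, with sites taken as independent. Fisher's exact test used scipy 1.17.1, with Python 3.11.15, numpy 2.4.6 and pandas 2.3.3. Folds used ViennaRNA 2.7.2 at 37 °C on 101 bases, and figures matplotlib 3.10.9. The calls by Fisher's exact test, the recovery of the unconverted rate and the Benjamini-Hochberg adjustment were tested on simulated data, and the other steps were not. Alternatives were coverage of 50 and 100 reads, a level of 20%, leaving out the genes with most sites or the multigene families, and reads divided by 5. Values were given for 20 listed maternal-effect genes, the 5 genes with most sites and the 5 highest sites per stage, and the 10 largest rises and 5 largest falls called per pair at 50 reads or more. The members and lists were chosen with earlier results of these data known.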

Additional observations from a re-analysis of the deposited data

How the results depend on the processing

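No paired analysis was possible because each stage had 1 library, and for the same reason no library could be left out. Of 195 alternative values of the counts, medians, shares and means given above, 158 stayed the same and 37 moved. The same meant within 1.5 times of a count, within the interval of a median or share, or within the SD over sites for the mean number of G. The 3 shares of reads without Zbed3 were put down as moved without such a limit. A level minimum of 20%, which removes low sites by construction, left 23, 43 and 76 sites with medians of 30.4%, 31.4% and 34.3%, and calls of a higher level of 15, 26 and 20 for GV to MII, MII to 1-cell and GV to 1-cell, with 0 lower from MII to 1-cell. It also gave 6 sites of over 2-fold lower and 1 of higher relative coverage from MII to 1-cell, and 6 and 2 from GV to 1-cell. Without the multigene families there were 37, 54 and 89 sites, Type II shares of 1.85% in MII and 1.12% in 1-cell, 23 sites higher from GV to MII and 1 lower from MII to 1-cell, and relative coverage was over 2-fold lower at 2 sites from GV to MII, higher at 1 from MII to 1-cell, and lower at 9 and higher at 1 from GV to 1-cell. Without Khdc3, which with Trim28 had most sites, 3 sites in place of 6 had lower coverage from GV to MII. With reads divided by 5, higher calls were 14, 18 and 25 and lower calls from MII to 1-cell 0, and 66 of the 123 calls at single sites were lost. At coverage minimums of 50 and 100 reads, 1 and 1 site had higher coverage from MII to 1-cell, and 1 and 1 from GV to 1-cell. Without Zbed3, left out after seeing the data, the share of reads was 3.27%, 3.01% and 2.83%. Sites need 5 unconverted reads, so low levels could not be listed at low depth, which the 1-cell library had most often.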

Other observations

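A wider set of 40 maternal genes outside the rule, among them growth factors, DNA methylation enzymes and the CCR4-NOT deadenylase, had a called site in 29, 33 and 32 genes in the order of the stages. From GV to MII oocytes 48 of its 92 shared sites were called higher and 0 lower (Fisher's exact test, adjusted over all shared sites), from MII oocytes to embryos 40 of 93 higher and 5 lower, and from GV oocytes to embryos 49 of 71 higher and 1 lower. The background shares for these pairs were 19.6% and 0.965%, 51.3% and 2.45%, and 66.1% and 1.05%. The median coverage of the set's shared sites in the earlier library was 866, 737 and 1268 reads, beside 151, 240 and 272 over all. At 1000 reads or more in that library, 73.2%, 64.4% and 83.5% of all sites were called higher. The counts of higher calls were therefore not read as particular to the set. The set's median differences were 4.98, 6.58 and 12.2 points. Tet3, which oxidizes DNA methylation in the zygote, had a 5′ UTR site at 83455434 of chromosome 6 with 42.9% of 161 reads, 58.8% of 131 and 93.3% of 104. Cnot7, a deadenylase of CCR4-NOT, had 21% of 981 reads, 32.6% of 617 and 71.4% of 290 at 40507513. Rif1, a regulator of replication timing, had 19.8% of 546 reads, 32.9% of 386 and 67.1% of 79 at 52076166 of chromosome 2. The Tet3 3′ UTR site at 83363112 rose by 23.1 points from GV to MII oocytes (adjusted p = 7.36e-06 by Fisher's exact test), and a Dicer1 site at 104691094 of chromosome 12 by 16.6 points (adjusted p = 0.0206).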
